A study of Mus musculus with 8 samples.

Results

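The 9 genes described here are Cd79a, Cd79b, Ms4a1, Bank1 and Blk, which act in B cells, and Cd74, H2-Aa, H2-Ab1 and H2-Eb1, which act in MHC class II antigen presentation. They were chosen by symbol from the 22609 genes of the deposited table, all 9 were found, and all 9 were high enough to be tested. RNA was sequenced from naive CD8 T cells, the cytotoxic T cell precursors that have not yet met antigen, isolated directly from spleens (C57BL/6 mice, 3 months old). The comparison was between 4 libraries from Brca1 wild type mice (WT 45, 54, 57 and 65) and 4 libraries from Brca1 heterozygous mice (Het 31, 53, 56 and 139), numbered as in the sample titles. How the Brca1 allele was made and the sex of the mice are not given in the labels, and no treatment is named. Whether each library stands for its own mouse is not stated in the labels, and p-values then reflect library spread, which may be technical.

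Cd79a and Cd79b encode the signalling pair that carries the B cell receptor signal across the membrane. Ms4a1 encodes the surface protein CD20, Blk encodes a Src family kinase of the receptor pathway, and Bank1 encodes a scaffold protein with ankyrin repeats. MHC class II molecules present peptides to CD4 T cells and are made by B cells, dendritic cells and macrophages. H2-Aa and H2-Ab1 encode the alpha and beta chains of I-A, H2-Eb1 encodes the beta chain of I-E, and Cd74 encodes the invariant chain that guides them to the endosome. Resting mouse T cells are not known to make these proteins, so in a T cell isolate these transcripts are commonly read as a measure of other spleen cells that were carried over. In such bulk RNA, more B cells and more RNA per B cell cannot be told apart.

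Class II genes are switched on together through a conserved promoter module, in which the X1, X2 and Y boxes are bound by RFX, CREB and NF-Y proteins under the coactivator Ciita. Promoter sequences from RefSeq (build GRCm38.p6) were found for 4 of the 9 genes. All 4 are shown as description. The B cell genes moved with the class II genes across libraries, so moving together was not particular to class II. Whether it relates to these sequences was not tested. Of the 4 class II genes, H2-Aa and H2-Eb1 had an entry. The submitters' notes name build mm9 for the counts, and the positions here are those of GRCm38.p6 only. Capitals mark matches, on either strand, to the Y box core ATTGG, the X2 box core TGACG, the X1 box core GCAAC, the octamer ATGCAAAT or the Ebf1 core CCCNNGGG. Each sequence is the 150 bases before the annotated start of transcription, on the strand of the gene.
H2-Aa (chr17:34287824-34287973, minus strand): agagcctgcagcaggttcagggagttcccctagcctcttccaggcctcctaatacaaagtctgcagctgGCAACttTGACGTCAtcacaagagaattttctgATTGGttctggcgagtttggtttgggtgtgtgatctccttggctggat
H2-Eb1 (chr17:34305717-34305866, plus strand): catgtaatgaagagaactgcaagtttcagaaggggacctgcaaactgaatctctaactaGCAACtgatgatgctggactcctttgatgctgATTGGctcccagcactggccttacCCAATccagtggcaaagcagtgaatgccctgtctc
Cd79a (chr7:24897347-24897496, plus strand): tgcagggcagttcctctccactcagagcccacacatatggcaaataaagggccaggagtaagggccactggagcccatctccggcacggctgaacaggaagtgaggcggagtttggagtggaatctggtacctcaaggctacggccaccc
Bank1 (chr3:136326067-136326216, minus strand): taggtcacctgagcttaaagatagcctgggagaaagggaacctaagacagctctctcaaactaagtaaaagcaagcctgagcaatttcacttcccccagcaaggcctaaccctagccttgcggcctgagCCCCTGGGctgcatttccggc

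In H2-Aa the GCAAC and ATTGG cores lay 28 bases apart, with an overlapping TGACG and CGTCA between them. In H2-Eb1 the gap was 27 bases and no TGACG was found. Over the 250 bases before the start of all 32851 promoters in the table, ATTGG or its complement occurred in 33.8%, GCAAC in 29.9%, TGACG in 17.8%, CCCNNGGG in 11.8% and the octamer in 1.60%. GCAAC followed on the same strand by ATTGG after 20 to 35 bases occurred in 221 promoters (0.673%). The GCAAC core and this spacing were chosen after the H2-Aa and H2-Eb1 sequences had been seen. These matches describe letters, not bound sites.

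The isolates carried the T cell transcripts of their label. Cd8a, a chain of the CD8 coreceptor, was at normalized read counts of 40591 to 50265.2 in the 8 libraries, and the summed count of 15 CD8 T cell genes ranged over 1.23-fold. The deposited values had been brought to 1 shared distribution, so totals show no depth. The lowest value above 0 lay at 0.2 to 0.3 for WT and at 0.9 to 1.9 for Het. The number of different values up to 100, which estimates the reads behind a value of 100, lay at 106 to 128 for WT and at 74 to 121 for Het. The first of these differed between the genotypes without overlap and the second overlapped. The lowest value of any of the 9 genes, 84.2, lay far above that of 1 read. Brca1 itself had a mean ± SD of 183 ± 29.3 over the 4 WT and 153 ± 22.7 over the 4 Het libraries (limma adjusted p = 0.742, log2 difference -0.25), which gave no check of the genotype labels. Without Het 31 its log2 difference was -0.32. Het 31 had the highest value of each of the 9 genes, so their differences and those of the gene lists are also given without it.

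The B cell receptor chains were present in every library and varied widely within each genotype. Cd79a had counts of 313.1, 1018.1, 648.2 and 922.4 in the WT libraries (45, 54, 57, 65) and of 2625.4, 1038.7, 386.8 and 777 in the Het libraries (31, 53, 56, 139). Cd79b had counts of 873.8, 2038.1, 1252.4 and 1819.8 in the WT libraries and of 4726.1, 2071.7, 1140.7 and 1666.2 in the Het libraries, in the same order. Both genes put the libraries in 1 order, with Het 31 first, Het 53 and WT 54 next, and Het 56 and WT 45 last. The genotypes overlapped in both.

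The other B cell genes followed with small shifts. Ms4a1 had counts of 290.8, 847.9, 505.1 and 1107.9 in the WT libraries (45, 54, 57, 65) and of 2525.8, 1397.7, 395 and 593.8 in the Het libraries (31, 53, 56, 139). Blk had 84.2, 368.3, 228.8 and 385.5 in the WT libraries and 878, 451.7, 181.4 and 241.7 in the Het libraries. In both, WT 65 stood above WT 54, whereas the receptor chains had WT 54 above WT 65. Bank1 had 331.9, 454, 371 and 424.2 in the WT libraries and 1267.4, 611.1, 247.9 and 488.6 in the Het libraries. Its WT values spanned only 1.37-fold, against 2.33-fold to 4.58-fold for the other B cell genes, and its lowest library was Het 56 rather than WT 45.

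The class II genes repeated the pattern. Cd74 had counts of 4016.8, 11625, 6624.9 and 7599.2 in the WT libraries (45, 54, 57, 65) and of 25823.4, 10358.2, 4663.5 and 9531.6 in the Het libraries (31, 53, 56, 139). H2-Aa had 1280.9, 3286.6, 1766.4 and 2572.3 in the WT libraries and 11212.9, 3645.8, 1119.9 and 2819.2 in the Het libraries. Het 31 held 3.08 times the H2-Aa of the next library, the widest such gap among the 9 genes. H2-Ab1 had 1476.4, 3321.6, 2041.5 and 2149.5 in the WT libraries and 8421.6, 2627.2, 1206.5 and 2881.1 in the Het libraries. H2-Eb1 had 1078.2, 2814.6, 1660.2 and 1921 in the WT libraries and 8144.8, 2820.8, 990.8 and 2413.1 in the Het libraries. For these 3 chains Het 56 was the lowest library and Het 31 the highest, so the Het group enclosed the whole WT range.

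**Figure D1:**
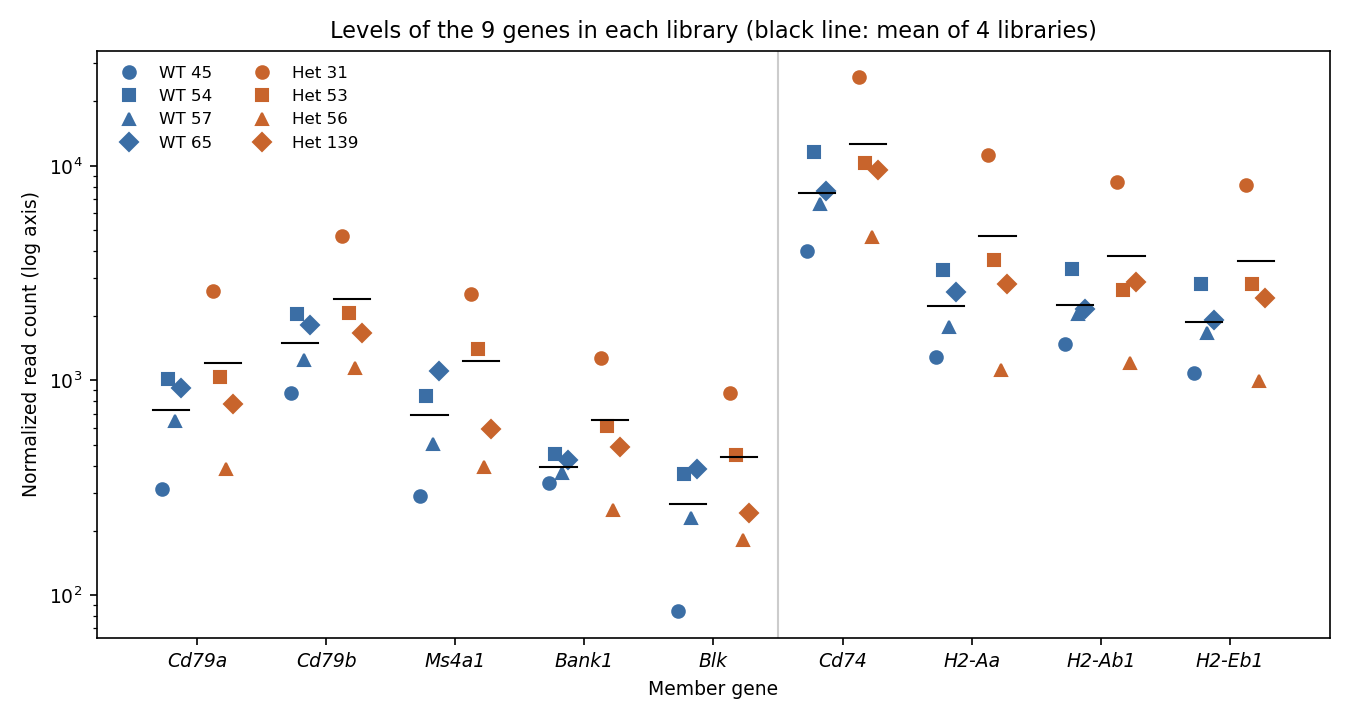
Normalized read counts (log axis) of the 9 genes in each of the 4 WT (blue) and 4 Het (orange) libraries, marked by library; black lines are the means of 4 libraries. Het 31 is the highest library for each gene, and Het 56 lies below WT 57 for each gene.

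C57BL/6 mice carry a null allele of H2-Ea, the partner chain of H2-Eb1, and do not make I-E protein. The table has a row for this locus as a pseudogene, H2-Ea-ps, and it is listed at 0 in all 8 libraries, including Het 31, where H2-Eb1 was at 8144.8.

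No gene of the 9 passed the test between genotypes, although each had a higher mean in Het. The limma test on log2(value + 1) called 0 of the 9 at an adjusted p of 0.05, against 0.515% of all 12048 tested genes, which were those with a mean of at least 10. At an unadjusted p under 0.05 it took 0 of the 9, against 8.19% of tested genes. Without Het 56 it took 6 of the 9 at that level, and with any other single library left out it took 0 of the 9. The share of all tested genes in the fit without Het 56 is not given, so the count of 6 has no background beside it. At the adjusted threshold that fit called 0 of the 9 and 91 of 12051 tested genes. The WT and Het values overlapped in each of the 9. The log2 difference was above 0 in 9 of 9 genes, against 52.0% of tested genes, with a median of 0.58 over the 9 and 0.01 over all tested genes. The 9 genes moved as a block across libraries, so their shared sign is not 9 separate observations.

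For each of the 9 genes the difference between the means was smaller than the SD of the Het libraries and larger than that of the WT libraries. Cd79a averaged 725 ± 316 over the 4 WT and 1207 ± 983 over the 4 Het libraries (mean ± SD). Its log2 difference was 0.53 with an SE of 0.53 and a 95% interval from -0.64 to 1.69 (exact permutation p = 0.486, limma adjusted p = 0.781). H2-Aa had the largest difference of the 9, with 2227 ± 885 in WT against 4699 ± 4468 in Het (0.69 on the log2 scale, SE 0.57, interval from -0.56 to 1.94, exact permutation p = 0.371, limma adjusted p = 0.749). H2-Ab1 had the smallest, with 2247 ± 775 against 3784 ± 3178 (0.46, SE 0.47, interval from -0.59 to 1.51, exact permutation p = 0.514, limma adjusted p = 0.787). For the other 6 genes the log2 difference was 0.50 to 0.66, the exact 2-sided permutation p 0.314 to 0.400 and the limma adjusted p 0.718 to 0.758. Each interval spans 0 and reaches above 1, so neither equal levels nor a 2-fold higher level in Het is left out by these 8 libraries.

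Single libraries set the size of the difference. Without Het 31 the log2 differences of the 9 genes lay between -0.043 (H2-Ab1) and 0.24 (Blk), with a median of 0.11, and 8 of 9 were above 0 (lowest limma adjusted p = 0.9997). The mean of the remaining 3 Het libraries was 734 ± 328 for Cd79a, 2528 ± 1288 for H2-Aa and 2238 ± 903 for H2-Ab1 (SD), beside WT means of 725, 2227 and 2247. Without Het 56 the differences lay between 0.84 (Cd79b) and 1.22 (H2-Aa), with a lowest unadjusted limma p of 0.0124 and a lowest adjusted p of 0.219. Without WT 45 the median was 0.32. No library left out brought a member past the adjusted threshold.

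**Figure D2:**
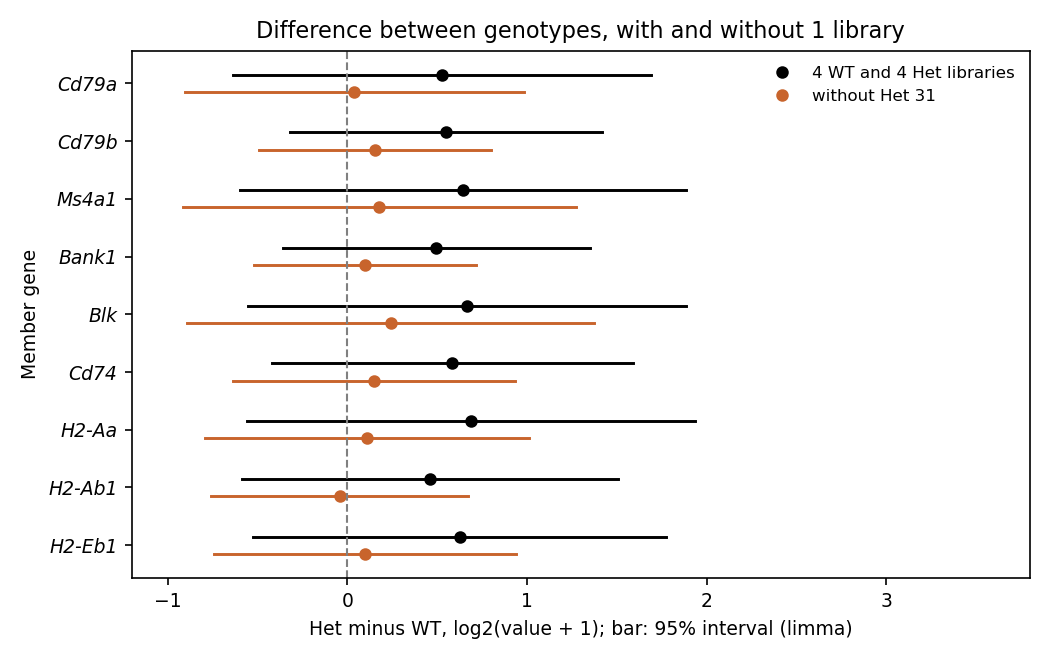
Het minus WT difference of log2(value + 1) for each of the 9 genes, with its 95% interval from limma, using all 8 libraries (black) or leaving out Het 31 (orange). All black intervals span 0, and without Het 31 the estimates lie between -0.043 and 0.24.

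Seen library by library, the 9 genes formed 1 pattern that did not follow genotype. Each gene was divided by its geometric mean over the 8 libraries. The ratios were 2.72 to 4.22 in Het 31, 1.04 to 1.83 in Het 53, 0.97 to 1.36 in WT 54, 0.85 to 1.45 in WT 65 and 0.78 to 1.14 in Het 139. They were 0.66 to 0.82 in WT 57, 0.42 to 0.66 in Het 56 and 0.29 to 0.71 in WT 45. Het 31 was first for 9 of 9 genes, where 20.8% of all tested genes had their highest value in that library. WT 45 was last for 5 genes and Het 56 for the other 4. Of 28 pairs of libraries, 22 had all 9 genes pointing 1 way. Of the 16 pairs of a WT and a Het library, all 9 were higher in Het in 9 pairs and all 9 were higher in WT in 3. Without Het 31 these counts were 5 and 3 of 12 pairs, and 4 pairs were mixed. The pairs share libraries and are a description only.

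**Figure D3:**
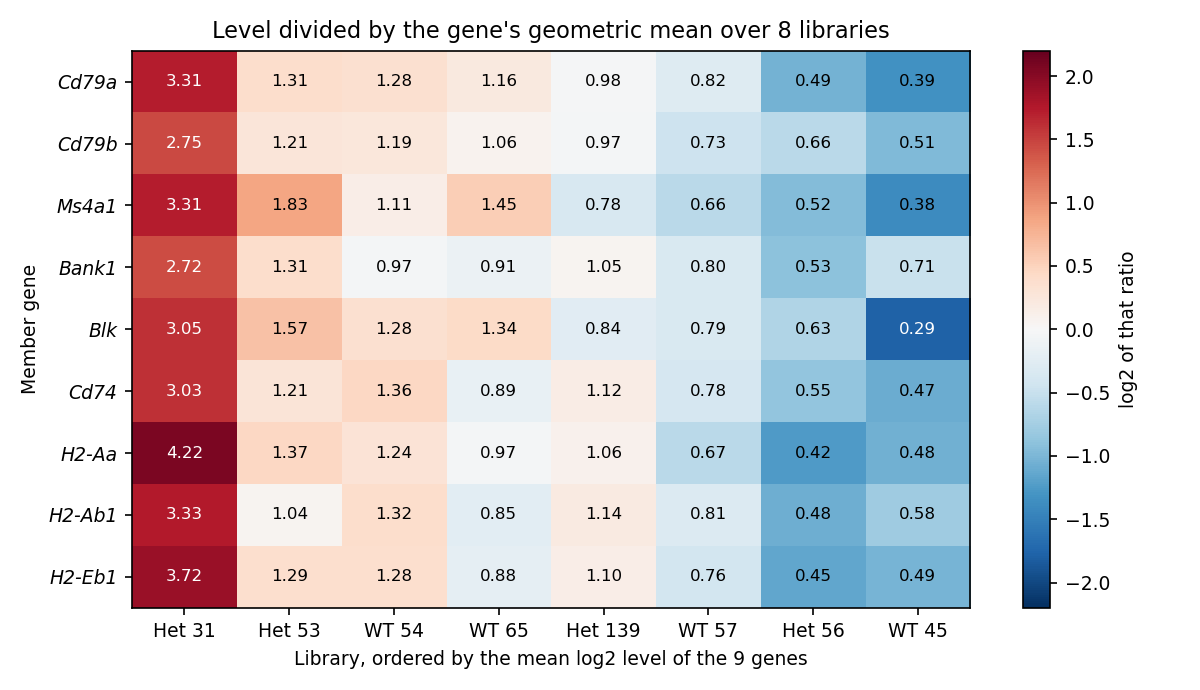
Level of each of the 9 genes (rows) in each library (columns, ordered by the mean log2 level of the 9), divided by the gene's geometric mean over the 8 libraries; the number is the ratio and the colour its log2. WT and Het libraries are mixed along the order, with Het 31 (2.72 to 4.22) and Het 53 at its head and WT 45 (0.29 to 0.71) at its end.

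The genes kept their proportions far more closely than their levels. Cd79a ranged over 8.39-fold across the 8 libraries, while Cd79b per Cd79a ranged over 1.64-fold (1.80 in Het 31 to 2.95 in Het 56). Ms4a1 per Cd79a ranged from 0.76 in Het 139 to 1.35 in Het 53, and Blk per Cd79a from 0.27 in WT 45 to 0.47 in Het 56. Bank1 per Cd79a was least constant, with 1.06 in WT 45 and 0.45 to 0.64 in the other 7 libraries. Against Cd79a, the class II genes ranged over 1.56-fold (Cd74), 1.57-fold (H2-Aa), 1.65-fold (H2-Eb1) and 2.02-fold (H2-Ab1), beside 1.64-fold to 2.38-fold for the other B cell genes. Between the class II chains, H2-Aa per H2-Eb1 was the tightest ratio computed, from 1.06 in WT 57 to 1.38 in Het 31. The 2 genotypes overlapped in each of these ratios: H2-Aa per Cd79a had a mean ± SD of 3.21 ± 0.63 over the 4 WT and 3.58 ± 0.56 over the 4 Het libraries, or 3.34 ± 0.39 over 3 without Het 31.

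A smaller second pattern set the class II genes against the B cell genes. The mean log2 level of the 4 class II genes exceeded that of the 5 B cell genes by 2.52, 2.47, 2.29 and 1.93 in WT 45, 54, 57 and 65, and by 2.54, 2.08, 2.06 and 2.58 in Het 31, 53, 56 and 139. WT 65, Het 53 and Het 56 were thus low in class II relative to B cell genes. The summed normalized count of 15 macrophage and monocyte genes was 2253.3, 4936.7, 3044.3 and 2608.2 in the WT libraries, and 7161.7, 4202.8, 1971 and 4930.1 in the Het libraries, in the same order. Among these genes Lyz1 was listed at 0 in Het 56, and 12 dendritic cell markers included 4 at 0 in Het 56, namely Clec9a, Cd209a, Clec10a and Batf3. The lowest value above 0 was 1.9 in both Het 56 and Het 139, and 0.2 to 0.3 in the WT libraries. A low level could thus be listed at 0 in Het 56 and above 0 in WT. In Het 139, with the same lowest value, Lyz1 was at 18.5 and the 4 dendritic cell markers were at 9.1 to 14.5. The part of such cells in the class II values was not tested.

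Most other surface proteins of B cells were also highest in Het 31. All 18 listed receptors and coreceptors were tested, 18 were higher in Het on average, 0 were called, and 16 had their highest value in Het 31 (median log2 difference 0.48). Without Het 31, 14 were higher and the median was 0.08. Cd22, an inhibitory sialic acid receptor, ranged over 4.90-fold and was highest in Het 31 at 2577.9. Cd72, another inhibitory coreceptor, did not share the pattern: it was between 2252.2 and 3956.1, ranged over 1.76-fold and was highest in WT 54.

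Receptor signalling genes divided in the same manner. In this list 9 of 9 tested genes were higher in Het on average, 0 were called, and the median log2 difference was 0.33. Without Het 31, 5 of 9 were higher and the median was 0.03. Plcg2, the phospholipase of the receptor pathway, was at 1097.2 in Het 31 and at 484 to 664.6 in the other libraries. Prkcb, a protein kinase C, and Dapp1, an adaptor, ranged over only 1.24-fold and 1.30-fold. Rasgrp3, an exchange factor for Ras, had the lowest limma adjusted p of the list, 0.495, and the lowest unadjusted p (0.0208), with 51.9 to 158.8 in WT and 115.9 to 411.5 in Het. It was singled out after its values had been seen.

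B cell transcription factors showed both kinds of gene. Of 12 tested, 9 were higher and 3 lower in Het on average, 0 were called, and the median log2 difference was 0.34. Without Het 31, 5 were higher and 7 lower, with a median of -0.05. Pou2af1, the octamer coactivator, was at 2192.5 in Het 31 and at 970.2 to 1544.6 elsewhere. Spib, an Ets factor of B cells, ranged over 6.62-fold, and its order (Het 31, Het 53, WT 65, WT 54) was that of Ms4a1 and Blk. Bach2 and Pou2f2, at 4324.8 to 5797.8 and 1090.9 to 1711.2, ranged over 1.34-fold and 1.57-fold and were not highest in Het 31.

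Within the class II pathway the genes divided into wide and narrow ranges. Of 10 tested genes, 9 were higher in Het on average, 0 were called, 9 were highest in Het 31, and the median log2 difference was 0.32. Without Het 31, 7 of 10 were higher and the median was 0.16. Ciita, the coactivator of class II promoters, had counts of 184, 400.3, 296.6 and 352 in the WT libraries (45, 54, 57, 65) and of 870.4, 443.6, 337.4 and 413.5 in the Het libraries (31, 53, 56, 139) (limma adjusted p = 0.601, and 0.0463 before adjustment). Without Het 31 its log2 difference was 0.42 (limma adjusted p = 0.9997, and 0.136 before adjustment). H2-Eb2, a second I-E beta gene, ranged over 15.4-fold, and H2-DMb2 and H2-DMb1, beta chains of the peptide editor H2-M, over 9.90-fold and 6.32-fold. By contrast H2-DMa, the alpha chain of the same editor, was at 1542.7 to 2754.7 and ranged over 1.79-fold. Its log2 difference was 0.38, with the lowest limma adjusted p of this list (0.561, and 0.0318 before adjustment). H2-Ob and H2-Oa, the chains of the H2-M inhibitor H2-O, ranged over 1.88-fold and 2.0-fold, and the protease Ctss over 1.98-fold. The chains of 1 complex therefore differed in their spread across these libraries, and H2-DMa and H2-Oa did not scale with H2-Aa.

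The proteins that assemble on class II promoters did not share the pattern. Rfx5, Rfxap, Rfxank, the 3 NF-Y subunits and Creb1 had a median range of 1.28-fold, below the 1.60-fold of all tested genes, and 0 of 7 were highest in Het 31. Creb1 was at 5315.4 to 6523.5 in WT and 4964.4 to 6811.2 in Het. Nfya was at 3288.1 to 3551.4 in WT and 3043.5 to 3817.2 in Het. The median log2 difference of the 7 genes was -0.01 (0.04 without Het 31), and 0 were called.

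**Figure D4:**
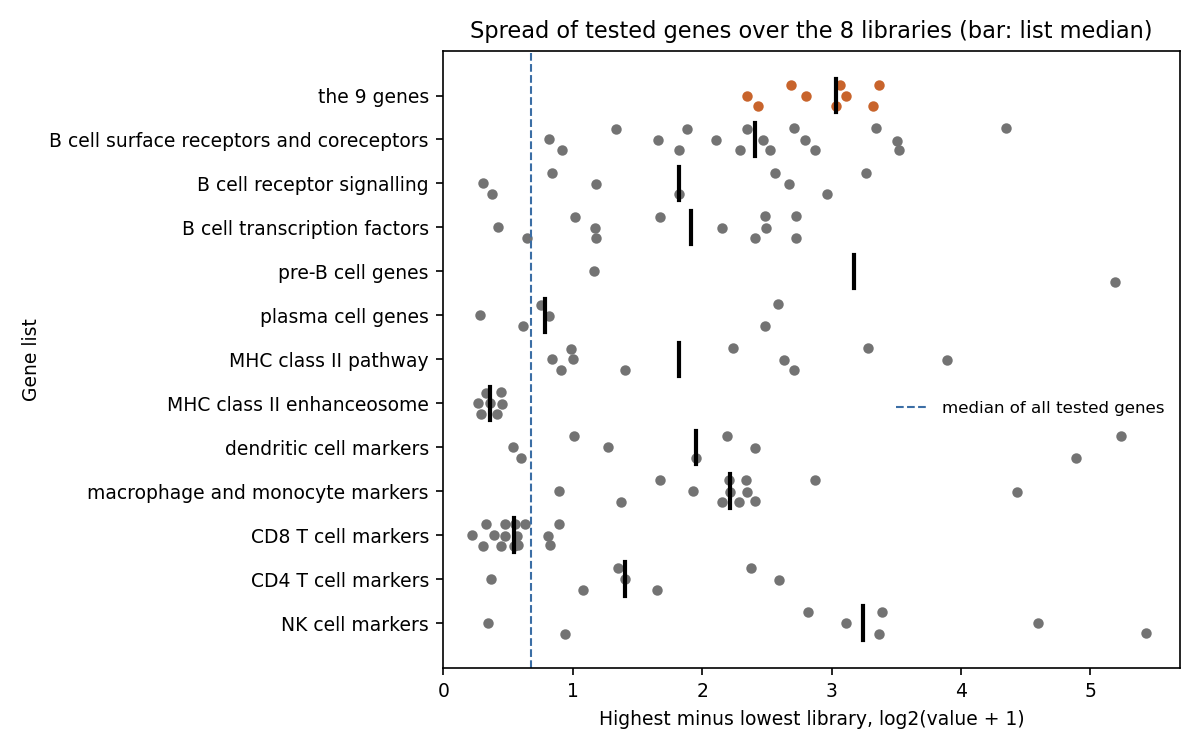
Range over the 8 libraries (highest minus lowest log2(value + 1)) of each tested gene of the 9 and of 12 gene lists; each point is a gene, black bars are list medians, and the dashed line is the median of all tested genes. The 9 genes have a median range of 3.04, against 0.68 for all tested genes. The median range is 0.55 for CD8 T cell markers and 0.36 for the class II enhanceosome (the proteins that assemble on the promoters).

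Markers of other cells moved with the 9 genes in part. Of 13 tested macrophage and monocyte genes, 11 were higher in Het on average (median log2 difference 0.32), 0 were called and 8 were highest in Het 31. Tyrobp, a signalling adaptor of myeloid and NK cells, was at 131.6 to 357.3 in WT and 161.3 to 970.7 in Het. Lyz2, the lysozyme of macrophages, was at 2010 in Het 31 and 2035 in Het 139, although Cd79a was at 777 in Het 139. Of 9 tested dendritic cell markers 7 were higher in Het on average (median log2 difference 0.15), 0 were called and 6 were highest in Het 31. The sum over the list was 29754.2 to 38189.5 in WT against 31397 to 37065.6 in Het. Ccr7 and Ccr9, chemokine receptors that T cells also carry, ranged over 1.45-fold and 1.51-fold. Of 8 tested NK cell markers 6 were higher in Het on average, 0 were called and 6 were highest in Het 31. Their median log2 difference was 0.98, above the 0.58 of the 9 genes. The list sum was 5197.1 to 6113.8 in WT against 5495.1 to 9109.5 in Het, and Klra4 was listed at 0 in all 8 libraries. Gzma, a granule protease, was at 3452.4 in Het 31 and 329.1 to 1327.2 in the other libraries. Prf1 and Eomes, the 2 genes of the same list with the highest means, were at 2812.1 and 1488.9 in Het 31, within the range of the other libraries (2608.6 to 3315.1 and 980 to 1879.6). Without Het 31 the median log2 difference was 0.04 for the macrophage and monocyte list (8 of 13 tested genes higher) and 0.03 for the dendritic cell list (5 of 7). It was 0.60 for the NK cell list (5 of 7), beside 0.11 for the 9 genes, and 0 were called in each list. Fewer genes of the last 2 lists were tested there because their means fell below 10 without Het 31. The genes lost had thus passed the filter only through that library. The counts highest in Het 31 and the medians with it, in these 2 lists, include them and are not independent of Het 31. The highest sums of the macrophage and NK cell lists were in Het 31. That of the dendritic cell list was in WT 65 (38189.5), where Ccr7 and Ccr9 alone were at 24040.5 and 12529.7. The part of these cells in the values of the 9 genes was not tested.

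The genes most like the 9 were sought among 9470 others with a mean of at least 50. Antigen receptor segments and unnamed gene models had been left out of these beforehand. Likeness was the Pearson r, over the 8 libraries, of the log2 level with the mean centred log2 level of the 9 genes. It is a description, since the libraries carry all genes at once and Het 31 weighs heavily in it. Altogether 67 genes had an r above 0.95. The 10 closest were Tyrobp (0.994), Fcer2a (0.994), Snn, Ppp4c, Unc93b1, Ppp2ca, Fcrla, Lass2, Swap70 and Taz (0.982). Without WT 45 and Het 31, the libraries farthest from the median, their r was 0.954 to 0.991. Fcer2a, the low-affinity IgE receptor of mature B cells, was at 212.2 to 596.1 in WT and 206.8 to 1441.1 in Het, and Fcrla, an Fc receptor-like protein of B cells, at 135.3 to 385.3 and 153.2 to 888.9. Unc93b1, which escorts Toll-like receptors to endosomes, ranged over 3.86-fold. Ppp2ca and Lass2, a phosphatase subunit and a ceramide synthase, ranged over only 1.25-fold and 1.36-fold and so shared the order without the size.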

How the data were processed

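RNA of 8 naive CD8 T cell isolates was sequenced from stranded messenger RNA libraries, per the labels' protocols. The authors deposited a single file of gene-level signal (normalized read counts with 1 decimal, no depth). CASAVA, TopHat2, HTSeq, DESeq and mm9 are named without roles, per the submitters' processing notes. Neither the normalization nor the strand setting of the counting is given in the sources used here. The sorted values of the 8 libraries matched within 2% at all 9513 ranks averaging 100 or more, so all share 1 distribution, and no count model was used.

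The 12048 genes averaging 10 or more were tested on log2(value + 1) with limma 3.58.1 (R 4.3.3, mean trend, 2-sided), and p-values were adjusted by Benjamini-Hochberg over all of them (threshold 0.05). Folds from this scale understate low genes. The procedure was tested on simulated data. Single values were compared by an exact 2-sided permutation test over 70 assignments (smallest p 0.0286). Named genes were the 9, the 3 highest genes of each of 13 lists and any called, the 10 most alike, Brca1 and H2-Ea. Other list genes named (Spib, Rasgrp3, Ciita, H2-Eb2, H2-DMb1, H2-DMb2, H2-Oa, Derl3, Sdc1, Prdm1, Tnfrsf17 and those at 0) were picked with their values known. Not all are described. The members and lists were chosen with earlier results of these data known. Of 144 list genes, 130 were found.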

Additional observations from a re-analysis of the deposited data

Results flagged for a closer look

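Libraries far from the other 3 of their genotype were sought for the 9 genes, the named genes and the list sums, and 3 of 140 groups (2.14%) held one, where chance gives about 1 in 20. None of the 9 genes did, since the gap of Het 31 to the next Het library was 0.529 (Ms4a1) to 0.768 (H2-Ab1) of the Het range, which is within what chance gives for 4 values. The summed NK cell markers were at 9109.5 in Het 31 and at 5495.1 to 6039 in the other Het libraries. Lyz2 was at 1133.4 in WT 54 and at 578.2 to 664.3 in the other WT libraries. Bach2 was low in WT 54, at 4666.5, with the other WT libraries at 5605 to 5797.8.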

How the results depend on the processing

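The 9 genes gave 0 calls by limma under each of 11 other settings of pseudocount (0.5 or 5), filter, scaling, weights or model, and with each library left out. With all 8 libraries the log2 differences stayed above 0 in these settings, between 0.40 and 0.89 (lowest limma adjusted p = 0.425). Scaled to the CD8 T cell markers they were 0.40 to 0.63. H2-Ab1 turned to -0.043 without Het 31. The count of all tested genes called was 62, all of them lower in Het. It was 123 without a filter (9 higher in Het) and 14 at a mean of at least 50. With the mean log2 level of the 9 genes as a covariate it was 27 (0 higher in Het, 26 of them among the 62). With 1 library left out it was 11 to 91. Without WT 54, 57 and 65 it was 16, 11 and 16, and without Het 31, 53 and 139 it was 27, 21 and 30. The cause was not tested. No paired analysis was possible because the genotypes share no replicate number. A fold within these intervals could not be resolved with 4 libraries a group, and depth limits only genes near the value of 1 read.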

Other observations

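Genes of other B lineage stages did not all follow the 9 genes. Igj, the joining chain of secreted antibodies and the single gene found of the immunoglobulin list, read 4907.5, 4236.5, 2611.1 and 1838.1 in WT 45, 54, 57 and 65. It read 8712.2, 6944.4, 3243.1 and 4914.1 in Het 31, 53, 56 and 139 (log2 difference 0.82, or 0.60 without Het 31, limma adjusted p = 0.584 with it). WT 45, with the lowest Cd79a of all libraries, had the highest Igj of the WT libraries, and WT 65 the lowest. Derl3, an endoplasmic reticulum protein of secretory cells, was likewise highest in WT 45 at 135.3 (21.7 to 50.7 in the other WT libraries). It was nearly as high in Het 53, at 128.9, and at 57.8 to 60.2 in the other Het libraries. Sdc1 of the same list was also highest in WT 45, at 91.9. Its other genes, Xbp1, Prdm1, Irf4, Tnfrsf17 and Creld2, were each highest in a Het library. The plasma cell list as a whole had 4 of 6 tested genes higher in Het on average (3 of 6 without Het 31), 0 called, and a median range of 1.72-fold. Vpreb3, a chaperone of the B cell receptor, was at 3.4 to 65.9 in WT and 27.4 to 159.8 in Het. Vpreb2 and Rag2, genes of early B cell precursors, are listed at 0 in all 8 libraries. Igll1 is above 0 only in Het 31, at 0.9, the value of 1 read there. Others of this list were found: Rag1 was at 0 to 1.9 in WT and 0 to 16.6 in Het, highest in Het 31. Vpreb1 was at 4.6 to 6.4 in WT and 5.6 to 16.6 in Het, and Cd93 at 43.6 to 77.7 and 41.2 to 93.3. Of 7 CD4 T cell markers 7 were higher in Het on average (6 without Het 31) and 0 were called, with Cd4 at 406.2 to 853.6 in WT and 484 to 1078.3 in Het. Derl3 was singled out after its values had been seen.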
